A study of Mus musculus with 11 samples.

Results

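Wnt proteins are secreted lipid-modified signals, and 47 genes that encode them, their processing proteins, their receptors or their secreted modulators were followed in the cortex of mouse embryos at E14.5. They were taken by symbol from the 24138 loci of the deposited expression table: Wnt and Fzd genes by number, Sfrp, Dkk and Rspo genes, and Lrp5, Lrp6, Frzb, Wif1, Porcn and Wls. Each was a locus of its own, with no other symbol joined to it. The tested libraries came from 2 conditional knockouts of Chd8 (cKO), a chromatin remodelling gene linked to autism, labelled Chd8 c/c with Emx1-cre, a Cre driver active in progenitors of the dorsal telencephalon and their progeny. The 3 control libraries carried floxed alleles and no Cre, so both groups share at least 1 floxed allele. Control 1 was labelled Chd8 c/+, and controls 2 and 3 were labelled c/c. Cells outside the Emx1 lineage, such as those of the ventral telencephalon, vessels and microglia, are expected to keep Chd8 in this design. The 6 ATAC-seq samples of the series were not analysed here.

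In the Wnt pathway, Porcn attaches a lipid to the ligand in the secretory route and Wls carries it to the surface. There it binds a Frizzled receptor together with Lrp5 or Lrp6, which stabilises beta-catenin in the canonical branch, or acts through Frizzled proteins on cell polarity. Sfrp proteins, Frzb and Wif1 bind the ligand outside the cell, Dkk proteins such as Dkk1 block Lrp5 and Lrp6, and R-spondins keep Frizzled receptors at the surface. In the embryonic cortex, Wnt signals come from the cortical hem at the medial edge and from the cortical wall itself. They are known to favour progenitor renewal and dorsal identity.

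Levels are FPKM, a value per transcript length and library size, so members can be compared with one another. A log2 change here is the mean of log2(FPKM + 1) in cKO libraries less that in controls. The added 1 shrinks the changes of weakly expressed genes. A locus was tested when its mean over the 5 libraries reached 1 FPKM, and 26 of the 47 members were. Of the 21 others, the highest mean was 0.824 FPKM, for Fzd4. Chd8 itself had 19.3 and 15.1 FPKM in cKO 1 and 2, against 31.5, 30.02 and 31.8 FPKM in controls 1 to 3. Both cKO libraries lay below every control, and the cKO mean was 55.2% of the control mean. Nothing in the labels says whether a library is 1 embryo or a pool, so p-values measure the spread between these libraries, which may be technical.

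The libraries differed in tissue markers, and whether this bears on the Wnt genes was not tested. The 10 diencephalic markers summed to 24.3 and 17.8 FPKM in cKO 1 and 2, against 198, 10.5 and 33.03 FPKM in controls 1 to 3. Control 1 stood apart, with 34.1 FPKM of Irx1 and 30.7 FPKM of Barhl1, genes that were under 1 FPKM in the other 4 libraries. In control 2, which had the lowest diencephalic sum, the hypothalamic gene Otp was listed at 0. The 6 intermediate progenitor markers summed to 209 and 172 FPKM in cKO 1 and 2, against 232, 549 and 361 FPKM in controls 1 to 3. The 9 cortical hem markers summed to 41.1 and 36.3 FPKM in the cKO libraries, against 77.5, 63.8 and 43.6 FPKM in controls, and 4 of the 9 were lower in both cKO libraries than in every control, with Msx2 listed at 0 in both. That pattern was met by 13.0% of the 18480 loci tested without a filter, and Bmp6 and Msx2 among the 4 lay under the filter described above. Much of the hem sum was Id3, with 26.03 and 26.08 FPKM in cKO 1 and 2, against 29.65, 36.65 and 24.39 FPKM in controls 1 to 3. In control 1, Lhx5 added 33.35 FPKM. The 13 ventral telencephalic markers summed to 561 and 661 FPKM against 339, 280.3 and 482 FPKM, and the 10 microglial markers to 102 and 98.3 FPKM against 30.7, 49.1 and 38.4 FPKM. Cortical markers were present throughout: the 11 radial glial genes summed to between 1544 and 1613 FPKM in cKO libraries and between 1516 and 2210 FPKM in controls. Much of that sum was Fabp7, with 714 and 782 FPKM in cKO 1 and 2, against 604, 673 and 616 FPKM in controls 1 to 3. The median log2 change of the 11 was -0.42, and 5 of them were lower in both cKO libraries than in every control (background 15.6% of tested loci), while 1 was higher (background 13.4%). At an unadjusted p under 0.05 in limma, 4 were lower (Hes1, Emx2, Lhx2 and Nes), where the background was 4.37%. The part of these differences in the results below was not tested. A value given without a library shows how far a result rests on that library. Control 1 was also the only c/+ control, so tissue and genotype cannot be told apart there. In bulk tissue, fewer cells of a type and less RNA per cell cannot be told apart.

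No tested member showed a change that passed the test. By limma, 0 of the 26 tested members had an adjusted p under 0.05 (all 26 lay between 0.575 and 0.988). Of all 12672 tested loci, 6 passed (0.0473%). Chd8 itself did not pass, with a log2 change of -0.83 (SE 0.15, limma adjusted p = 0.575). A count of 0 therefore does not show that the members were unchanged. At an unadjusted p under 0.05, 1 member, Fzd1, was lower (3.85% of those tested, background 4.37%) and 0 were higher (background 3.08%). Both cKO libraries lay below every control for 4 members, Fzd1, Fzd9, Fzd10 and Sfrp4. That is 15.4% of those tested, near the background of 15.6%. Fzd10 and Wnt3 reached the filter only through control 1, and the groups of Wnt3 overlapped. Without Fzd10 the count was 3 of 25 (12.0%), a setting added after the values were seen. No tested member had both cKO libraries above every control, where the background was 13.4%. The log2 change was negative for 19 of 26 members (73.1%, background 53.1%) and positive for 7, with a median of -0.18, against a median of -0.02 over all tested loci. Without control 1, where neither Fzd10 nor Wnt3 was tested, it was negative for 17 of 24 members. Their median was then -0.24, against -0.01 over all tested loci. The count of 4 members without overlap was 11 of 24 tested members without control 1 (background 28.8% of tested loci). It was 5 of 26 without control 2 (background 19.7%) and 6 of 26 without control 3 (background 19.4%). It was 9 of 26 without cKO 1 (background 34.7%) and 10 of 26 without cKO 2 (background 22.0%). The authors' deposited table called 4 of the 32 members that it tested, Wnt7b, Fzd1, Fzd9 and Fzd10, all as lower in the cKO (12.5%, where 3.0% of its tested loci were called lower). It called 0 as higher (background 1.21%). Of the 4, Wnt7b had groups that overlapped, and Fzd10 was high in control 1 alone.

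**Figure D1:**
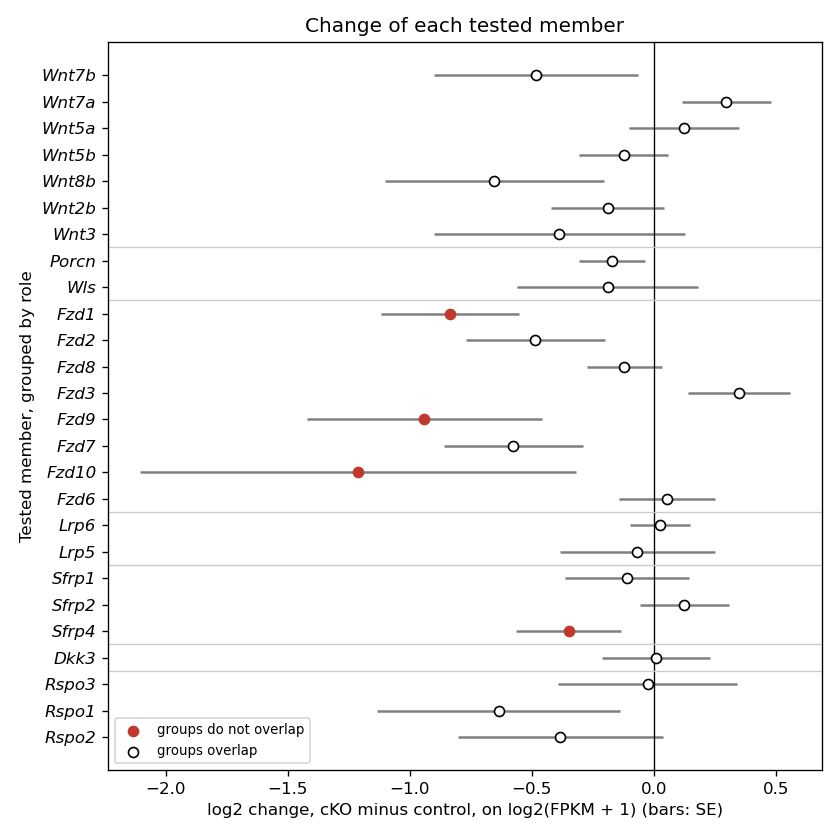
Log2 change (horizontal axis, cKO less control, in log2(FPKM + 1) units) of the 26 tested members, grouped by role down the page, with bars of 1 SE. Filled points mark the 4 members whose cKO and control libraries did not overlap, all of them on the negative side, and the bars of many other members cross 0.

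Wnt ligand RNA was mostly Wnt7b, and its level differed more among the controls than between the groups. The 19 ligand genes together summed to 95.1 and 72.5 FPKM in cKO 1 and 2, against 78.95, 157 and 95.6 FPKM in controls 1 to 3. The cKO sum was 75.9% of the control sum, and 96.1% without control 2. Wnt7b, a ligand of cortical neurons and progenitors known for its role in brain vessel growth (chromosome 15, 85535437 to 85581821 in GRCm38), had 64.4 and 44.3 FPKM in cKO 1 and 2, against 49.0, 125 and 68.9 FPKM in controls 1 to 3. The groups overlapped: cKO 1 lay between controls 1 and 3, and cKO 2 lay just under control 1. Its log2 change was -0.48 (SE 0.42, limma adjusted p = 0.674), and -0.12 without control 2. The authors' deposited table gave a log2 fold change of -0.58 with a q-value of 0.0360.

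Wnt7a, the close paralog of Wnt7b that acts through the same endothelial receptor complex, was the second ligand in abundance (chromosome 6, 91363981 to 91411353). It had 20.6 and 15.3 FPKM in cKO 1 and 2, against 12.5, 14.4 and 16.03 FPKM in controls 1 to 3, with a log2 change of 0.30 (SE 0.18, limma adjusted p = 0.593). Only cKO 1 exceeded all controls. The ratio of Wnt7a to Wnt7b, a measure chosen after the values were seen, was 0.320 and 0.344 in the cKO libraries, against 0.256, 0.115 and 0.233 in controls 1 to 3. The groups did not overlap in this ratio, as in 2 of the 6 within-family ratios computed, and Wnt7a made up 21.1% to 21.7% of ligand FPKM in cKO libraries, against 9.20% to 16.8% in controls.

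**Figure D2:**
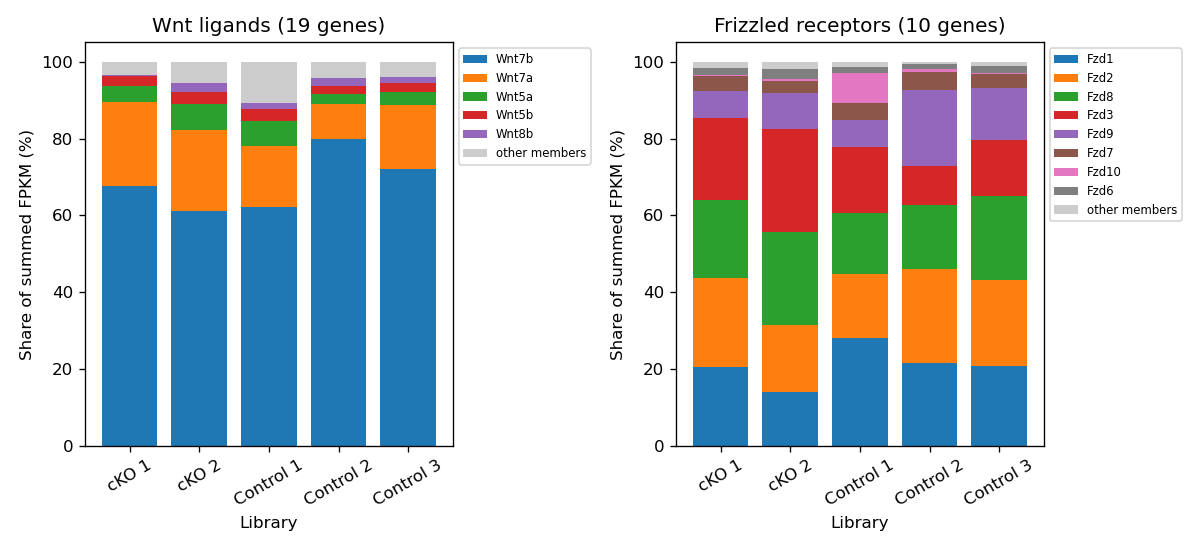
Share of summed FPKM (vertical axis, %) taken by the most abundant Wnt ligands (left) and Frizzled receptors (right) in each library, cKO libraries first. Wnt7b took 61.1% to 67.7% of ligand FPKM in cKO libraries and 62.1% to 79.8% in controls. Fzd3 took 21.3% to 26.8% of receptor FPKM in cKO libraries and 10.1% to 17.3% in controls. The shares of Fzd4, Fzd5 and Fzd6 were also higher in both cKO libraries than in every control, and those of Fzd1 and Fzd10 lower. The receptor sum was itself lower in both cKO libraries.

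Wnt5a and Wnt5b, ligands best known for the noncanonical branch, came next in level. Wnt5a had 4.16 and 4.9999 FPKM in cKO 1 and 2, against 5.29, 4.15 and 3.10 FPKM in controls 1 to 3, and Wnt5b had between 2.11 and 2.36 FPKM in cKO libraries, against 2.28 to 2.98 FPKM in controls. Their groups overlapped, and their log2 changes were 0.13 (SE 0.23) for Wnt5a and -0.12 (SE 0.18) for Wnt5b.

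The ligands of the cortical hem were low and uneven. Wnt8b, a ligand of the hem and the adjacent hippocampal primordium, had 0.321 and 1.75 FPKM in cKO 1 and 2, against 1.41, 3.55 and 1.45 FPKM in controls 1 to 3. The 2 cKO libraries differed from each other by more than either differed from control 1. Wnt2b, another hem ligand, had 0.841 and 1.21 FPKM in the cKO libraries, against 1.499, 1.46 and 0.970 FPKM in controls. Wnt3a, the hem ligand needed for growth of the hippocampus, did not reach the filter, at 0.186 and 0.442 FPKM in cKO 1 and 2 and 0.119, 1.91 and 0.346 FPKM in controls 1 to 3. Control 2 was far above the other 4 libraries for Wnt3a. Wnt10a was also highest in control 2, with 0.0638 and 0.631 FPKM in the cKO libraries, against 0.0649, 1.18 and 0.354 FPKM in controls. Hem markers in these libraries are given above.

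A further set of ligands was high in control 1. Wnt1, a signal of the midbrain-hindbrain boundary and dorsal midline, had 0.143 and 0.198 FPKM in cKO 1 and 2, against 1.55 FPKM in control 1, 0.0471 FPKM in control 2 and a listed 0 in control 3. Wnt3, a canonical ligand that is also made in the thalamus, had 0.533 and 0.678 FPKM in the cKO libraries, against 2.85, 0.180 and 1.03 FPKM in controls 1 to 3. The cKO mean of Wnt3 was 44.7% of the control mean, and 99.8% of it without control 1. Control 1 is the library with the high diencephalic markers and the only c/+ control, and the part of either was not tested. The other 9 ligands had at most 1.02 FPKM in any library: Wnt2, Wnt4, Wnt6, Wnt8a, Wnt9a, Wnt9b, Wnt10b, Wnt11 and Wnt16. Wnt8a was listed at 0 in all libraries and Wnt16 in all but cKO 1. Wnt10b was listed at 0 in both cKO libraries and at 0.0346 to 0.0441 FPKM in controls, a level at which no change can be read.

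The 2 ligand-processing genes were expressed throughout. They summed to 28.1 and 25.4 FPKM in cKO 1 and 2, against 36.2, 28.8 and 28.4 FPKM in controls 1 to 3, with no overlap. Porcn had 20.5 and 17.0 FPKM in cKO 1 and 2, against 20.2, 21.7 and 21.7 FPKM in controls 1 to 3, with a log2 change of -0.17 (SE 0.13, limma adjusted p = 0.650). Wls had 7.60 and 8.31 FPKM in cKO 1 and 2, against 15.998, 7.08 and 6.74 FPKM in controls. Control 1 was the high library again. The log2 change of Wls was -0.19 (SE 0.37) with all libraries and 0.18 (SE 0.13) without control 1, so its direction rested on that library.

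**Figure D3:**
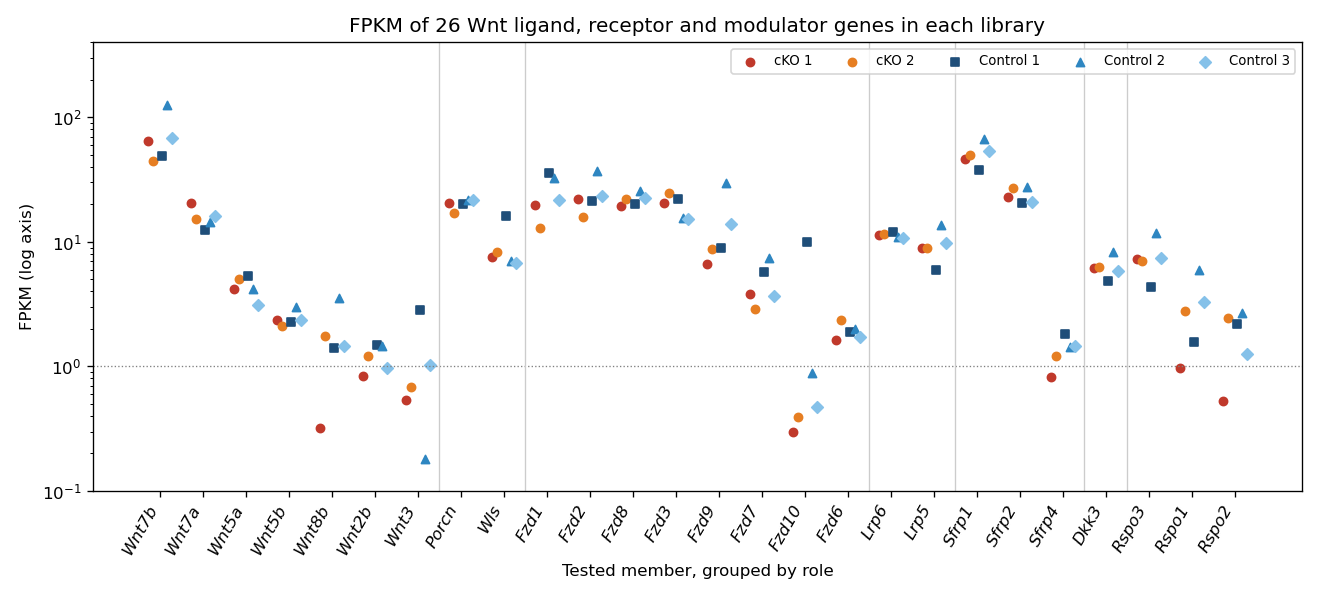
FPKM (vertical log axis) of the 26 tested members in each of the 5 libraries, grouped by role along the horizontal axis, with cKO points left of control points and a dotted line at 1 FPKM. Wnt7b and Sfrp1 are the most abundant members, and the single point near 10 FPKM for Fzd10 is control 1.

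Frizzled receptor RNA was lower in sum in both cKO libraries than in any control. The 10 genes summed to 95.8 and 91.7 FPKM in cKO 1 and 2, against 128, 153 and 104 FPKM in controls 1 to 3, so that the groups did not overlap. The ligand-processing sum given above did not overlap either, and 15.6% of single tested loci had both cKO libraries below every control. The cKO receptor sum was 73.2% of the control sum, and between 66.8% and 80.8% when any 1 library was left out. Of the 8 tested receptors, 6 had a negative log2 change and 2 a positive one, with a median of -0.53 (-0.49 without Fzd10), and none passed the test over all loci. Fzd1, Fzd2, Fzd8 and Fzd3 were the most abundant, and their ranges over the 5 libraries overlapped.

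Fzd1, a receptor for canonical ligands (chromosome 5, 4753839 to 4758216), had 19.8 and 13.0 FPKM in cKO 1 and 2, against 36.1, 32.8 and 21.6 FPKM in controls 1 to 3. Both cKO libraries lay below every control, with cKO 1 close to control 3. The log2 change was -0.84 (SE 0.28), with a limma adjusted p of 0.575 over all loci (range over the alternatives 0.323 to 0.999). Its unadjusted p of 0.0283, from limma, was 0.0686 without control 1 (log2 change -0.70), 0.0614 without control 2 (-0.76) and 0.178 without cKO 2 (-0.55). It was 0.00969 without control 3 (-1.05) and 0.0297 without cKO 1 (-1.12). The authors' deposited table gave -0.88 as its log2 fold change, with a q-value of 0.00331. An exact permutation test cannot give a p below 0.1 with 3 and 2 libraries.

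Fzd9, a receptor known from neural progenitors and the hippocampus (chromosome 5, 135248938 to 135251047), had 6.65 and 8.73 FPKM in cKO 1 and 2, against 8.88, 29.8 and 13.9 FPKM in controls 1 to 3. The groups did not overlap, but cKO 2 and control 1 differed by little, and the controls spread 3.36-fold. The cKO mean was 43.8% of the control mean, or 67.4% without control 2, the library with the highest sum of intermediate progenitor markers. A link with these markers was not tested. The log2 change was -0.94 (SE 0.48, limma adjusted p = 0.575), and the authors' deposited table gave -1.19 with a q-value of 0.0102.

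Fzd10, a receptor known from the dorsal neural tube (chromosome 5, 128601106 to 128604093), had 0.298 and 0.392 FPKM in cKO 1 and 2, against 9.95, 0.878 and 0.469 FPKM in controls 1 to 3. Control 1 alone carried it past the filter. The cKO mean was 9.16% of the control mean, and 51.2% without control 1, where the locus no longer reached a mean of 1 FPKM and was not tested. The log2 change was -1.21 (SE 0.89, limma adjusted p = 0.636), and the authors' deposited table gave -3.45 with a q-value of 0.00331. Irx1 and Barhl1, described above, were likewise high in control 1, and a link was not tested.

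The 3 receptors without overlap lie on chromosome 5, and the 250 bases before their annotated starts are shown because both cKO libraries lay below every control for these receptors. The sequences are from RefSeq (GRCm38.p6) and read 5′ to 3′ on the gene's strand. Capitals mark matches on either strand to any of 3 motifs. The first, CTTTGA, is the core that TCF and LEF factors are known to bind. The second is the TATA box, searched here with the letters TATAAA. The third is the GC box known from Sp1 binding, searched with the letters GGGCGG.
Fzd1 (chr5:4758217-4758466, minus strand): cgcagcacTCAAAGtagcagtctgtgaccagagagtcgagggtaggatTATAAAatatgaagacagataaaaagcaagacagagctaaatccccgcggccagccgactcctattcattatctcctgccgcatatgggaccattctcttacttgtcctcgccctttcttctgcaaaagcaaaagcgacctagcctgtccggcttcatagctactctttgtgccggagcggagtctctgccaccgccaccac
Fzd9 (chr5:135251048-135251297, minus strand): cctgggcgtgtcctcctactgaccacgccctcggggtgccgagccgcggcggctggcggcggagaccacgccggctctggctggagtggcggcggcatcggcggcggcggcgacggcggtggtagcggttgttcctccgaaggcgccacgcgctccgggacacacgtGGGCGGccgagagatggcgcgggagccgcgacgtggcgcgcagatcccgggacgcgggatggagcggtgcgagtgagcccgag
Fzd10 (chr5:128600856-128601105, plus strand): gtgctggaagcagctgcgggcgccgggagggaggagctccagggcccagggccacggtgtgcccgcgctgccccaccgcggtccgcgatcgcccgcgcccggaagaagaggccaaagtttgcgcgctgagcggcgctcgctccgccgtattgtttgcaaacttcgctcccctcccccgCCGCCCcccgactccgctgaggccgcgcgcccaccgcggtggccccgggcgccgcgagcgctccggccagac
They differed in makeup: Fzd1 held 12 CpG dinucleotides and 51.2% G and C, Fzd9 held 42 CpG and 76.4%, and Fzd10 held 37 CpG and 76.4%. Fzd1 held 1 match to CTTTGA and 1 to TATAAA, Fzd9 and Fzd10 held 1 GC box each, and no matches overlapped. RefSeq promoters matched 30 of the 47 members by symbol, with 33 start sites. Of those 33, 5 held CTTTGA (13.8% of all 32851 promoters), 5 held TATAAA (12.4%) and 24 held GGGCGG (32.7%). The member promoters had a median of 22 CpG dinucleotides, against 6 over all promoters. A match describes letters in this window and is not evidence of binding.

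The other receptors did not separate the groups. Fzd2, a receptor of both branches, had 22.1 and 15.8 FPKM in cKO 1 and 2, against 21.4, 37.2 and 23.3 FPKM in controls 1 to 3 (log2 change -0.49, SE 0.28, limma adjusted p = 0.578). Fzd7, which is close to Fzd1 and Fzd2 in sequence, had 3.83 and 2.87 FPKM in the cKO libraries, against 5.73, 7.46 and 3.71 FPKM in controls (log2 change -0.58, SE 0.28). In both, cKO 2 lay below every control and cKO 1 did not. Fzd8 was nearly level, at 19.5 and 22.2 FPKM in the cKO libraries, against 20.2, 25.7 and 22.5 FPKM in controls.

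Fzd3, a receptor known for axon tract formation, had the opposite sign. It had 20.4 and 24.6 FPKM in cKO 1 and 2, against 22.2, 15.4 and 15.3 FPKM in controls 1 to 3, with a log2 change of 0.35 (SE 0.21, limma adjusted p = 0.581). The groups overlapped through control 1. The ratio of Fzd3 to Fzd1, chosen after the values were seen, was 1.03 and 1.89 in cKO libraries, against 0.616, 0.470 and 0.707 in controls, with no overlap. The groups overlapped in the 4 other ratios computed. These were Fzd8 to Fzd1 (0.985 and 1.70 in cKO libraries, against 0.560 to 1.04 in controls), Fzd9 to Fzd1, Sfrp2 to Sfrp1 (0.499 and 0.547, against 0.387 to 0.542) and Lrp6 to Lrp5. Fzd6 had 1.64 and 2.34 FPKM in cKO libraries, against 1.72 to 1.99 FPKM in controls, and the untested Fzd4 and Fzd5 stayed under 1.02 FPKM in all 5 libraries.

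**Figure D4:**
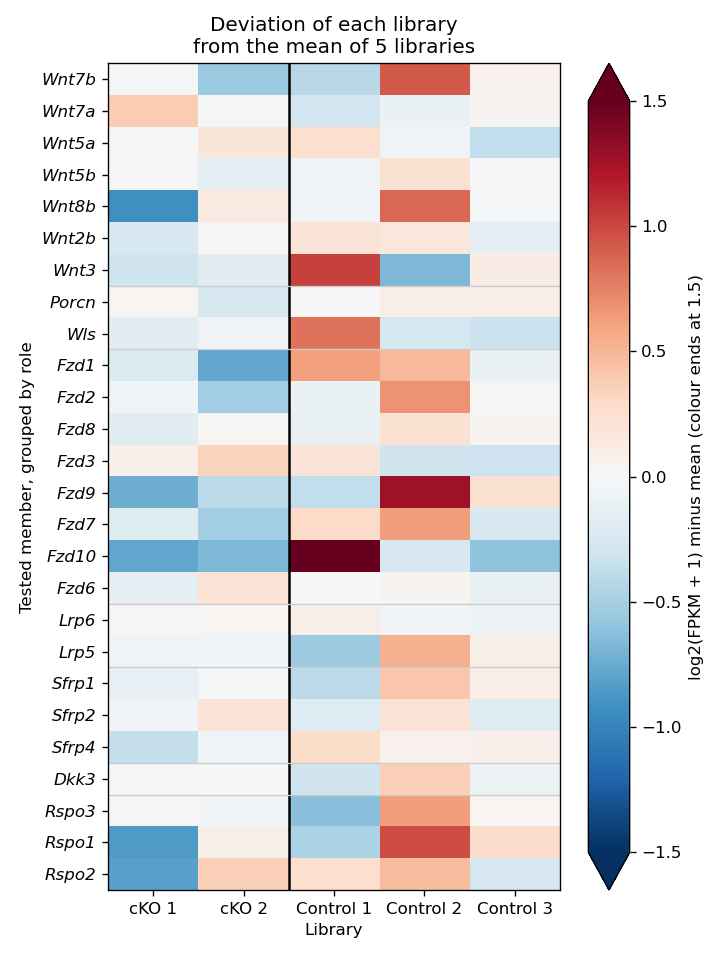
Deviation of each library from the mean of the 5 libraries (colour, log2(FPKM + 1) units, red higher and blue lower) for the 26 tested members, with the 2 cKO libraries left of the 3 controls. Control 1 is high for Fzd10, Wnt3 and Wls, and control 2 is high for Wnt7b, Wnt8b, Fzd9, Rspo1 and Rspo3.

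The co-receptors differed little between the groups. Lrp6 had 11.3 and 11.5 FPKM in cKO 1 and 2, against 12.1, 10.98 and 10.7 FPKM in controls 1 to 3, the narrowest spread of the controls among tested members after Porcn. Lrp5 had 8.89 and 8.85 FPKM in the cKO libraries, against 5.98, 13.7 and 9.75 FPKM in controls. Both cKO values of each gene lay inside the control range, and the log2 changes were 0.02 (SE 0.12) for Lrp6 and -0.07 (SE 0.32) for Lrp5.

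Ligand-binding inhibitors were led by Sfrp1 and Sfrp2, both made by cortical progenitors. Sfrp1 had 46.1 and 49.6 FPKM in cKO 1 and 2, against 38.0, 67.4 and 53.8 FPKM in controls 1 to 3 (log2 change -0.11, SE 0.25). Sfrp2, which also marks the antihem at the lateral edge of the cortex, had 23.0 and 27.1 FPKM in the cKO libraries, against 20.6, 27.7 and 20.8 FPKM in controls (log2 change 0.13, SE 0.18). The cKO values of both lay within the range of the controls. The 6 antihem markers summed to 29.7 and 26.3 FPKM in the cKO libraries, against 37.2, 28.4 and 27.8 FPKM in controls. Dbx1 made up 10.8 FPKM of the sum in control 1 and was under 1 FPKM in every other library.

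Of the 6 ligand-binding inhibitors, the other 4 had both cKO libraries below every control, at low levels. Without a filter on low values, 13.0% of the 18480 loci tested did so. Sfrp4 had 0.816 and 1.22 FPKM in cKO 1 and 2, against 1.81, 1.43 and 1.45 FPKM in controls 1 to 3 (log2 change -0.35, SE 0.21, limma adjusted p = 0.593). Frzb, also called Sfrp3, had 0.551 and 0.509 FPKM in the cKO libraries, against 0.798, 1.18 and 0.904 FPKM in controls. Wif1 had 0.289 and 0.466 FPKM in the cKO libraries, against 1.67, 0.556 and 0.554 FPKM in controls, with control 1 the highest. Sfrp5 stayed between 0.0796 and 0.155 FPKM in the cKO libraries and between 0.161 and 0.290 FPKM in controls. Of these, Sfrp4 alone was tested.

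Of the Dkk genes, Dkk3, a divergent member whose action on the pathway is unsettled, was the one with substantial RNA. It had 6.22 and 6.27 FPKM in cKO 1 and 2, against 4.88, 8.27 and 5.85 FPKM in controls 1 to 3, with a log2 change of 0.01 (SE 0.22). Dkk2 had 0.478 and 0.212 FPKM in the cKO libraries, against 0.545, 0.340 and 0.426 FPKM in controls. Dkk1 had 0.0513 and 0.107 FPKM in the cKO libraries, against 0.644, 0.0890 and 0.0683 FPKM in controls, so control 1 was again the high one. Dkk4 was listed at 0 outside control 1.

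R-spondins were led by Rspo3, which is made in the hem. Rspo3 had 7.29 and 6.97 FPKM in cKO 1 and 2, against 4.32, 11.7 and 7.37 FPKM in controls 1 to 3 (log2 change -0.02, SE 0.37). Rspo1 had 0.977 and 2.77 FPKM in the cKO libraries, against 1.57, 5.98 and 3.26 FPKM in controls (log2 change -0.64, SE 0.50, limma adjusted p = 0.649). Rspo2 had 0.523 and 2.45 FPKM in the cKO libraries, against 2.20, 2.70 and 1.25 FPKM in controls. For Rspo1 and Rspo2, as for Wnt8b, cKO 1 was the lowest of the 5 libraries while cKO 2 lay within the controls. Rspo4 was at most 0.0305 FPKM.

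The tested members were most often highest in control 2 (15 of 26, or 57.7%, where 34.8% of all tested loci were) or control 1 (8 of 26, or 30.8%, where 24.1% were). The highest library was cKO 1 for Wnt7a (3.85%, background 11.6%), cKO 2 for Fzd3 and Fzd6 (7.69%, background 23.7%) and control 3 for no member (background 5.69%).

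**Figure D5:**
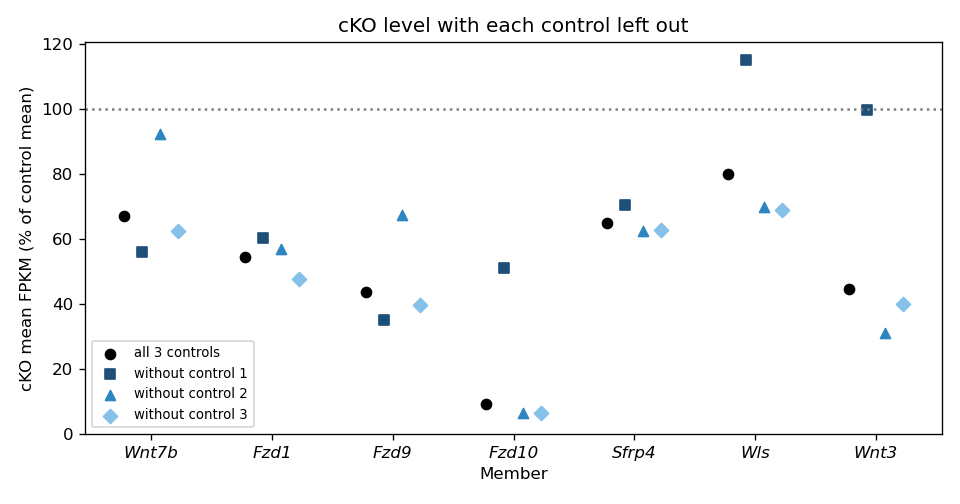
Mean cKO FPKM as a percentage of the mean control FPKM (vertical axis) for 7 members, with all 3 controls and with each control left out. Without control 1, Fzd10 stands at 51.2% in place of 9.16%, Wnt3 at 99.8% in place of 44.7% and Wls above 100%, while Fzd1 stays between 47.6% and 60.3%.

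Other genes of the pathway were read from lists chosen with earlier results of these data known. None passed the test over all loci in limma. The counts below are at an unadjusted p under 0.05, which 4.37% of all tested loci met as lower and 3.08% as higher, and over those loci the median difference was -0.02 on the log2 scale. Of 23 core transduction genes, 2 were lower and 0 higher, with a median log2 change of -0.19. These were Dvl1, a Dishevelled adaptor of Frizzled, with 31.4 and 24.8 FPKM in cKO 1 and 2, against 39.1, 41.8 and 34.3 FPKM in controls 1 to 3, and Tle2, a Groucho corepressor. Of 12 tested TCF factors and feedback targets, 4 were lower (Tcf7l1, Axin2, Nkd1 and Apcdd1) and 0 higher, with a median of -0.66. In this list, Tcf7l2, Lef1 and Sp5 had 78.5, 30.1 and 13.0 FPKM in control 1. They had at most 11.5, 11.5 and 3.74 FPKM in any other library. The part of control 1 in this median was not tested. Apcdd1, an inhibitor at the receptor, had 36.1 and 31.2 FPKM in the cKO libraries, against 45.6, 67.98 and 43.6 FPKM in controls. Of 12 tested co-receptors and other surface regulators, 1 was lower and 0 higher. This was Kremen1, a Dkk receptor, with 3.47 and 3.39 FPKM in the cKO libraries, against 4.69, 7.31 and 5.27 FPKM in controls. Of 12 tested planar cell polarity genes, 2 were lower, Vangl2, a core polarity protein, and Fuz, an effector in cilium formation, and 0 were higher. Fuz had 8.05 and 6.71 FPKM in the cKO libraries, against 10.8, 11.8 and 12.2 FPKM in controls, with no overlap.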

How the data were processed

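RNA-seq of E14.5 mouse cortex was analysed in 2 cKO and 3 control libraries, grouped by sample title. The deposited table listed FPKM for each locus in each library, with group means by the authors. The column names do not state that unit, and it was taken from the values and from Cufflinks. Per the submitters' processing notes, CASAVA, TopHat, Cufflinks, Bowtie2 and MACS and the build mm10 were used, without roles or versions. Annotation and strand setting: not given in the sources used here. Per the file headers, the authors also deposited a comparison of cKO with control, as a log2 fold change with its statistic (a score), p-value and q-value. A protocol label names Eed where titles and genotypes name Chd8.

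Of 24138 loci, the 12672 whose mean reached 1 FPKM were fitted as log2(FPKM + 1) by limma (version 3.58.1, in R 4.3.3) with a trend in intensity, at 3 residual and 2.49 prior degrees of freedom, and p-values were adjusted by Benjamini-Hochberg over all tested loci. The procedure was tested on simulated data, with planted changes larger than the log2 change of any tested member in the main fit. That test does not show how often changes of the size seen here would be called. Sequencing depth is unknown, as whole reads were not recovered. The summed FPKM per library was 418191 to 484296. Members and lists were chosen with earlier results of these data known. Full values are given for tested members without overlap between groups, at an unadjusted p under 0.05 in limma or called by the authors. They are also given for the 2 most abundant of each role. Of the other pathway lists, genes at an unadjusted p under 0.05 in limma are named, and only some are given with FPKM. Alternatives were a pseudocount of 0.1 FPKM, no filter or a mean of 5 FPKM, rescaled, median-centred or quantile-normalised values, no trend, a replicate block and leaving out each library.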

Additional observations from a re-analysis of the deposited data

How the results depend on the processing

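Under all 13 alternatives 0 members passed the adjusted threshold. The median log2 change of the tested members stayed negative, from -0.24 without control 1 to -0.10 without cKO 1. Without a filter, 2 members were lower at an unadjusted p under 0.05 and 8 had groups that did not overlap on the lower side (13.0% of all loci), since 46 members were then tested. With a mean of at least 5 FPKM, 15 members were tested and 2 did not overlap (16.1% of all loci). Quantile normalization also left 2 (12.6% of all loci), and rescaling to equal sums gave 1 member on the higher side (12.9% of all loci); the cause was not tested. The log2 change of Rspo3 turned positive under both (0.026 and 0.029).

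With 1 library left out, tested members numbered 24 without control 1 and 26 in the other settings. Members lower at an unadjusted p under 0.05 in limma numbered 1, 0 and 2 without controls 1, 2 and 3 (7.68%, 2.81% and 1.92% of all loci). Those higher numbered 1, 0 and 0 there, and their share over all loci was not computed. Members without overlap numbered 5 to 11 on the lower side (19.4% to 34.7% of all loci) and 1 to 4 on the higher side (15.1% to 27.8%). The highest count on each side was reached without control 1, and fewer libraries make overlap rarer at all loci. Among the 16 tested members given full values, the sign turned for 6, Dkk3 (-0.14 to 0.19), Lrp6 (-0.010 to 0.072), Lrp5 (-0.35 to 0.19), Sfrp1 (-0.33 to 0.079), Rspo3 (-0.34 to 0.29) and Wls (-0.39 to 0.18). It also turned for Wnt5a, Fzd6 and Rspo2 among the other tested members.

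The titles number replicates in both groups, but deviations of same-numbered libraries correlated at -0.07 and -0.11, so the numbers are not taken to pair them. With the replicate block, in which control 3 has no partner, 1 member was lower at an unadjusted p under 0.05 in limma (1.18% of all loci). Dkk3 was at -0.027 and Lrp6 at -0.010. Depth is unknown, so no counting interval can be given for members near 0 FPKM.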
